A study of Mus musculus with 28 samples.

Results

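The genes described here encode the subunits of the receptors for glutamate and GABA, the main excitatory and inhibitory transmitters of the brain. They were taken by symbol from the deposited table of 24062 genes: the AMPA (Gria), NMDA (Grin), kainate (Grik) and delta (Grid) families, the metabotropic glutamate receptors (Grm), the GABA-A subunits (Gabr) and the GABA-B subunits (Gabbr). This gave 43 genes, of which 42 passed the filter on low counts and were tested among 16369 genes. The exception was Grm6, the metabotropic receptor of retinal bipolar cells, with 0 to 2 counts in any library. Messenger RNA was sequenced from the hippocampus of female mice in 7 groups of 4 libraries. The 16 libraries labelled 3xTg come from the 3xTg-AD line, which carries human amyloid precursor protein and tau transgenes in a Thy1 promoter cassette that is active mainly in neurons. The 12 wild-type (WT) libraries are labelled BL6/129, a mixed strain background. The 3xTg mice received ABT263 (navitoclax, labelled NAVI), a drug that blocks BCL-2 family proteins that keep cells alive, or the kinase inhibitor dasatinib with the flavonol quercetin (labelled DQ), or a vehicle labelled VehN or VehD. The WT mice received NAVI, DQ or a vehicle labelled only Veh, so a drug effect compared across genotypes can include what the vehicles differ in. The sources used here give no age, dose or schedule.

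AMPA receptors carry most of the fast excitatory current at hippocampal synapses, and NMDA receptors, which need the obligatory GluN1 subunit and glutamate-binding GluN2 subunits, admit the calcium that starts long-term potentiation. Kainate receptors tune transmission at mossy fibre synapses, and metabotropic receptors act through G proteins. GABA-A receptors are chloride channels built from alpha, beta and gamma or delta subunits, in which the alpha subunit sets location and pharmacology, and GABA-B receptors are G protein-coupled pairs of the R1 and R2 subunits.

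The promoters of Gabra2, Grik5 and Grin1 are shown because Gabra2 had the smallest p of the subunit genes between the genotypes over all treatments, a comparison added after the data were seen, and because Grik5 and Grin1 are GC-rich genes whose NAVI values moved together. Each window holds the 250 bases before the annotated start in RefSeq (build GRCm38.p6), on the minus strand, at chr5:71095850-71096099, chr7:25072370-25072619 and chr2:25319188-25319437. Capitals mark the GC box core GGGCGG, searched on both strands.
Gabra2: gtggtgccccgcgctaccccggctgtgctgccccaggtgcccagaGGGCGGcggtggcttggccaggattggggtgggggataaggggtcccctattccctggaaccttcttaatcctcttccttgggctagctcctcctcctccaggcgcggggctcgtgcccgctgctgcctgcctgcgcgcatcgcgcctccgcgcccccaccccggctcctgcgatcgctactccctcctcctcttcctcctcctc
Grik5: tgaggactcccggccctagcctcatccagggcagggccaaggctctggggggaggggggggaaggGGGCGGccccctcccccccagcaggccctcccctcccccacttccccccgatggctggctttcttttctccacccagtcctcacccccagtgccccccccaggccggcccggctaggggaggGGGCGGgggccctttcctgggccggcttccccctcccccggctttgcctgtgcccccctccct
Grin1: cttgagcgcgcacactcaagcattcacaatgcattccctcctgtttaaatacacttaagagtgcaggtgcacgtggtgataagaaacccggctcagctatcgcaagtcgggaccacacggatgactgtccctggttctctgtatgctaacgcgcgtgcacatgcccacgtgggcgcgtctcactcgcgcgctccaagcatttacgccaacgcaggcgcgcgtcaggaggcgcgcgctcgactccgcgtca
The Gabra2 window had a GC content of 70% and 1 match, the Grik5 window 75.2% and 2 matches, and the Grin1 window 58.8% and 0 matches. Of 28 subunit genes with a window in the RefSeq table, 16 (57.1%) held the core in at least 1 window. By window it was 17 of 35 (48.6%), against 32.7% of all 32851 windows of that length. The median GC content was 61.2% in the subunit windows and 52.4% in all windows, and a match is a description of the letters, not a binding site.

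Levels are given in CPM, read counts scaled by library size after TMM adjustment. Libraries held 32080861 to 54019519 counts. App, at 2410 to 3805 CPM in the 3xTg libraries and 1470 to 1800 in WT, and Thy1, at 1598 to 2602 and 632 to 782, separated the genotypes as labelled; both may include reads of the transgenes. Markers of thalamus and habenula, tissue that borders the hippocampus, differed widely between libraries. The 8 libraries with the highest thalamus score were 3xTg VehN replicates 1 and 2, VehD replicates 1 and 4, 3xTg NAVI replicate 1, WT Veh replicate 2 and WT DQ replicates 1 and 4, and results are also given without them. Choroid plexus markers varied too, with summed levels from 71.2 to 5900 CPM. All 10 markers of each of these lists were above 0 in every library. All 8 general neuronal markers were tested, and their summed level ran from 6668 CPM to 8413 CPM.

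Per kilobase of the longest transcript, the GABA-A subunits together gave 583 ± 58.2 CPM per kb and the AMPA subunits 446 ± 43.2 (mean and SD of 28 libraries). They were followed by GABA-B at 174 ± 10.4, the metabotropic receptors at 108 ± 6.71, NMDA at 64.8 ± 6.12, kainate at 53.2 ± 4.88 and delta at 12.8 ± 0.889. Length is that of the longest annotated transcript, so the per-length level of a gene with a long untranslated end, such as Grin2b at 24.1 kb, is a low estimate if shorter forms prevail. In bulk tissue, fewer cells of a type and less RNA per cell cannot be told apart.

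Among the AMPA subunits, Gria1 (GluA1, the main subunit of pyramidal cells) held 57.0% ± 1.91 of the family's per-length RNA. Gria2, whose edited subunit makes the channel impermeable to calcium, held 24.0% ± 1.14, Gria3 14.8% and Gria4 4.21%. Among the NMDA subunits Grin1 (GluN1) held 54% ± 2.72, ahead of Grin3a at 18.2%, Grin2c at 10.8%, Grin2b at 10.1% and Grin2a at 5.31%. Grik5 (the high-affinity GluK5) led the kainate subunits with 41.6%, and Grm5 the metabotropic receptors with 42.7%. Of the GABA-A family Gabrb2, a common beta subunit, held 18.6%, and Gabra5, which forms extrasynaptic receptors of pyramidal cells, held 13.1%. Neighbours in these orders were often close: Gabra4, Gabra2 and Gabra3 stood at 41.6 ± 4.97, 40.3 ± 13.1 and 40.0 ± 8.14 CPM per kb. The lowest tested levels were those of Grin3b, Gabra6 (a cerebellar subunit) and Gabre, each under 0.1 CPM per kb on average.

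**Figure D1:**
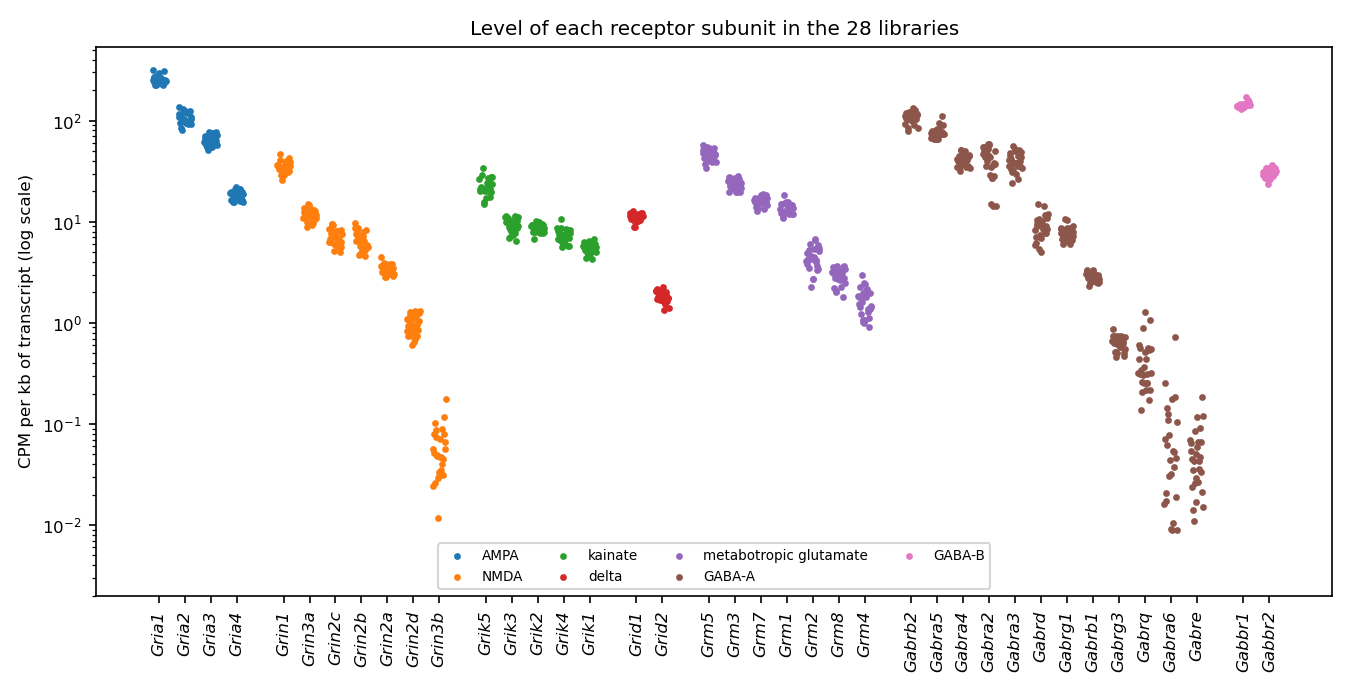
Each point is 1 of 28 libraries, the vertical log axis gives CPM per kb of the longest transcript, and 39 of the 42 tested subunit genes are grouped by family; libraries at 0 counts (Grin3b and Gabra6) are not drawn. Gria1 stands highest at 254 CPM per kb on average, and Gabra2 shows a wide spread for its level, from 14.2 to 58.5.

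Between 3xTg and WT with vehicle, 3 of the 42 subunit genes were lower in 3xTg and none was higher, while 13.1% of all tested genes were called at an adjusted p under 0.05 and 7.4% were called lower. The 3 were Grid1, Grin2d and Grin3b. The median log2 difference of the 42 was 0.01, that of all genes 0.01, and 23 of the 42 were positive. The vehicle side for 3xTg is the mean of VehN and VehD.

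Grid1, a delta receptor that binds cerebellins at synapses, was at 59.6, 51.1, 51.2 and 57.3 CPM in VehN, at 63.4, 62.9, 57.6 and 59.5 in VehD and at 69.8, 65.9, 69.3 and 65.4 in WT with vehicle. Every WT library lay above every 3xTg vehicle library. The log2 difference was -0.23 (SE 0.0533, edgeR adjusted p = 0.00782). The call held without any 1 of these 12 libraries (highest adjusted p = 0.0393) and without the 8 high-thalamus libraries (-0.27, adjusted p = 0.0144). With VehD alone as the 3xTg side it was lost, and over all treatments the difference was -0.07 (adjusted p = 0.184).

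Grin2d (GluN2D, an NMDA subunit of interneurons) was at 5.55, 4.31, 3.29 and 3.99 CPM in VehN, at 5.08, 4.49, 3.5 and 4.50 in VehD and at 5.68, 5.66, 6.75 and 7.15 in WT with vehicle, again with no overlap. Its log2 difference was -0.54 (SE 0.159, edgeR adjusted p = 0.0279). It was -0.22 once the trend of counts with transcript GC content was taken out of each library (adjusted p = 0.158), and the call was lost without VehN replicate 3, VehD replicate 3 or WT Veh replicate 1, 3 or 4 (adjusted p up to 0.121). Without the 8 high-thalamus libraries it was -0.79 (adjusted p = 0.0148). The call was lost with VehN alone (adjusted p = 0.0551) or VehD alone (0.114) as the 3xTg side, and over all treatments the difference was -0.24 (adjusted p = 0.104). Grin3b (GluN3B) rested on 0 to 12 counts per 3xTg vehicle library and 8 to 20 per WT vehicle library, which gave a log2 value of -1.55 (SE 0.469, edgeR adjusted p = 0.0311). It was -2.65 without the high-thalamus libraries (adjusted p = 0.00955) and was not called without VehN replicate 3 or WT Veh replicate 1 or 4, or with the GC trend removed (-1.23, adjusted p = 0.0633). Nor was it called with VehN alone (adjusted p = 0.0702) or VehD alone (0.121), and over all treatments it was at -0.49 (adjusted p = 0.297). The exons of Grin3b overlap those of Tmem259 on the other strand, and those of Grin2d overlap Gm45441. Whether counting used strand is unknown here, which leaves both counts uncertain.

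The subunits that carry most of the fast transmission did not pass the test. Gria1 ran from 1251 to 1649 CPM in the 8 3xTg vehicle libraries and from 1306 to 1404 in WT with vehicle (log2 0.05, SE 0.0839). Gria2 was at 0.14 (SE 0.111), Grin2a at 0.05 (SE 0.0910), Grin2b at -0.16 (SE 0.124), Grik4, a mossy fibre kainate subunit, at -0.03 (SE 0.129) and Grm5 at 0.09 (SE 0.107). Gabra5 was at -0.14 (SE 0.0939), Gabrd, the delta subunit of dentate granule cells, at -0.22 (SE 0.204) and Gabbr1 at -0.10 (SE 0.0417). Grin1 at -0.25 (adjusted p = 0.0597) and Grik5 at -0.37 (adjusted p = 0.0510) missed the threshold narrowly with edgeR and passed it with DESeq2. Without the 8 high-thalamus libraries 17 subunit genes were called, 8 higher and 9 lower, beside 30.5% of all genes.

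Markers of other cells moved in the same comparison, and their part in these differences was not tested. Interneuron markers were lower for 3 of 9, with summed levels of 1033 to 1136 CPM in VehN, 1049 to 1183 in VehD and 1089 to 1278 in WT with vehicle. Dentate gyrus markers were lower for 2 of 6 (188 to 255, 180 to 248 and 200 to 333 CPM). Astrocyte markers were higher for 4 of 6, and thalamus markers passed for 0 of 10 at a median log2 difference of 0.92.

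Over all treatments, setting the mean of the 4 3xTg groups against the mean of the 3 WT groups, a comparison added after the data were seen, 3 GABA receptor genes were called: Gabra2 higher in 3xTg, Gabbr1 and Gabra5 lower. This is 3 of 42, while 17.4% of all tested genes were called, 8.78% higher and 8.65% lower. Each of the 3 was called in all 28 fits that left out 1 library. Marker levels also differed between the genotypes, and their part in these differences was not tested. The score of the 8 general neuronal markers, a mean log2 level relative to all libraries, averaged -0.07 to -0.01 in the 4 3xTg groups and 0.06 to 0.07 in the 3 WT groups. That of the 6 dentate gyrus markers averaged -0.20 to -0.04 and 0.14 to 0.19. That of the 6 astrocyte markers averaged 0.15 to 0.26 and -0.28 to -0.24, with summed levels of 2488 to 3599 CPM in 3xTg and 1738 to 1999 in WT.

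Gabra2, the alpha2 subunit found at the axon initial segment of pyramidal cells and known to differ in level between inbred mouse strains, lies on chromosome 5 from 70957597 to 71095849. Gabra2 was not on the list of genes to be described in every comparison and was singled out after its values were seen. The WT libraries stood at 166, 216, 291 and 84.4 CPM with vehicle, at 158, 83.3, 212 and 225 with NAVI and at 168, 205, 88.1 and 157 with DQ. The 16 3xTg libraries ran from 206 to 342 CPM with a median of 274. WT Veh replicate 4, NAVI replicate 2 and DQ replicate 3 lay at 83.3 to 88.1 CPM, the next at 157, and every 3xTg library lay above 8 of the 12 WT libraries. The log2 difference was 0.73 (1.66-fold, SE 0.155, edgeR adjusted p = 0.00151). It was 0.87 without the high-thalamus libraries (adjusted p = 0.0124) and 0.68 with the GC trend removed (adjusted p = 6.93e-04). In every comparison of 3xTg with WT, the mice may differ in strain background as well as in the transgenes. This design cannot tell the 2 apart, for Gabra2 or for any other gene.

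Within single treatments Gabra2 was at 0.62 with vehicle (SE 0.251, edgeR adjusted p = 0.0925), 0.56 with NAVI (SE 0.283, adjusted p = 0.200) and 0.98 with DQ (SE 0.285, adjusted p = 0.0601). The vehicle value became 0.91 and was called without WT Veh replicate 3 (adjusted p = 0.0354), and the DQ value was called without WT DQ replicate 2 (adjusted p = 0.0406). The spread of Gabra2 among WT libraries, an SD of 0.60 in log2 CPM, was the widest of the 38 subunit genes with a mean of at least 1 log2 CPM, against 0.22 in 3xTg. Of 1851 tested genes within 1 log2 unit of its level, 4 (0.216%) spread at least as widely over the WT libraries, a count made after the spread was noticed. The neighbouring GABA-A genes of chromosome 5 did not fall with it: in the 3 low libraries Gabrb1 was at 35.0, 39.2 and 40.9 CPM, within its WT range of 34.3 to 41.1, and Gabrg1 at 34.6, 40.7 and 30.7, within 28.6 to 43.2. Gabra4 was at 141, 167 and 163 CPM there, 141 being the lowest of its WT values, which reached 206. Exons of Gabra4 and Gabrb1 overlap on opposite strands, so their counts are uncertain.

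Gabbr1 (the ligand-binding R1 subunit) was at 726, 689, 699 and 703 CPM in VehN, 725, 759.9, 736 and 724 in VehD, 753, 724, 710.3 and 760.5 with NAVI and 733, 728, 731 and 724 with DQ. WT libraries were at 756, 772, 812 and 747 with vehicle, 786, 781, 776 and 838 with NAVI and 764, 772, 757 and 895 with DQ. Of the 3xTg libraries 3 lay above the lowest WT library. The log2 difference was -0.12 (SE 0.0260, edgeR adjusted p = 0.00231). Gabra5 ran from 174 to 222 CPM in 3xTg with a median of 189 and from 197 to 297 in WT with a median of 208, so the groups overlapped. Its difference of -0.20 (SE 0.0587, edgeR adjusted p = 0.0192) was not called without the high-thalamus libraries (-0.18, adjusted p = 0.108). Its exons overlap Gm9962 on the other strand.

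**Figure D2:**
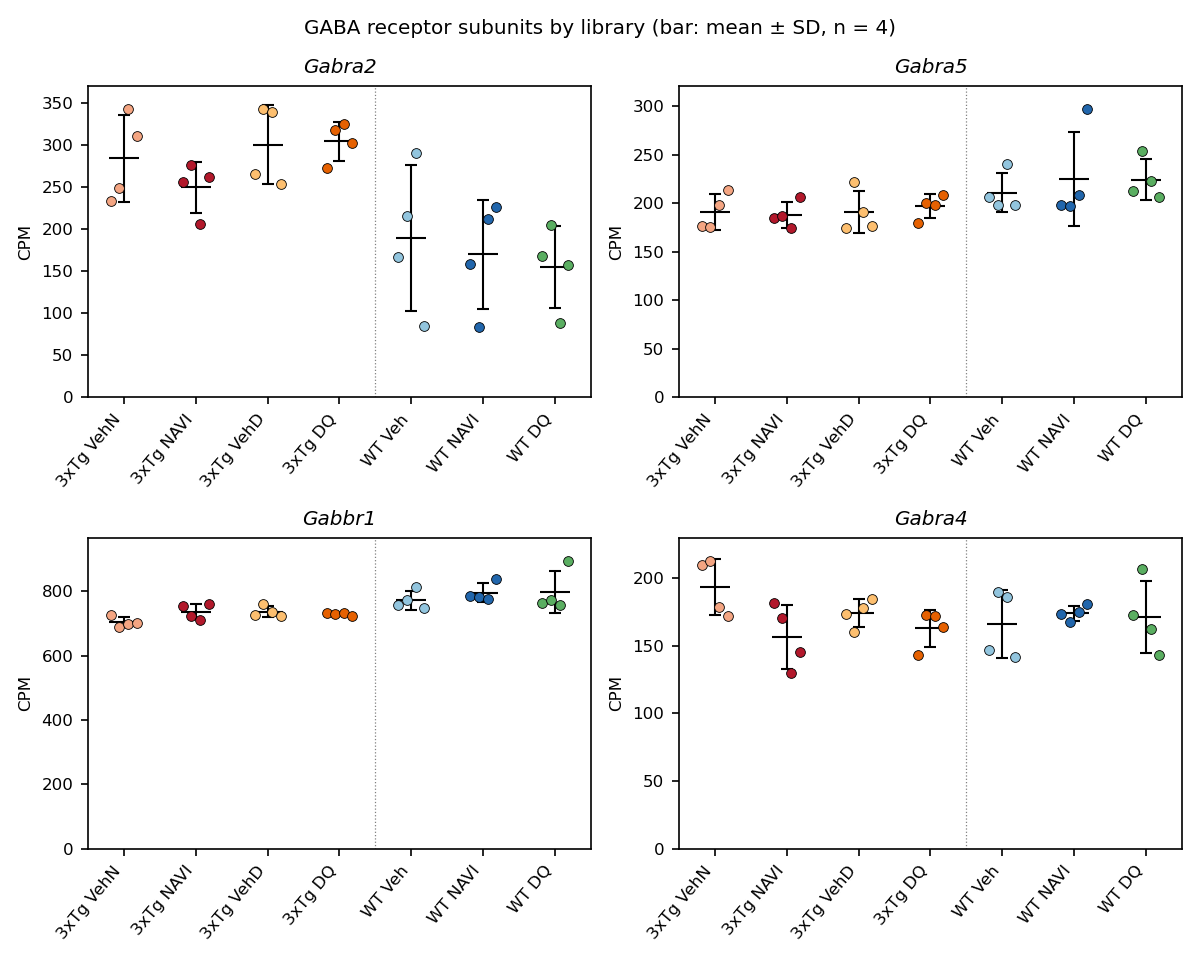
CPM of Gabra2, Gabra5, Gabbr1 and the chromosome 5 neighbour Gabra4 in each library (points) by group, with the mean and SD of 4 libraries (bars); axes start at 0. Gabra2 lies between 206 and 342 CPM in all 3xTg libraries and drops to 83.3 to 88.1 in 1 library of each WT group, while Gabra4 lies at 141 to 167 in those libraries.

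NAVI against VehN in 3xTg called 0 of the 42 subunit genes with edgeR, beside 0% of all genes. At an unadjusted p under 0.05 there were 12, 7 higher and 5 lower, beside 29.1% of all genes, while the DESeq2 count was 5. The smallest p-values were those of Grid1 (log2 0.26, SE 0.0622), Grik5 (0.56, SE 0.145) and Grin2b (0.55, SE 0.145), each with an edgeR adjusted p of 0.0595. With the GC trend removed Grik5 was at 0.15 (adjusted p = 0.243), while Grid1 was at 0.27 and Grin2b at 0.66 (adjusted p = 0.135 for both). Of the core subunits Gria1 was at 0.01, Gria2 at -0.13, Grin1 at 0.36, Grin2a at 0.17, Grik4 at 0.22, Grm5 at -0.10, Gabra5 at -0.02, Gabrd at 0.01 and Gabbr1 at 0.07. Against VehN and VehD averaged 4 subunit genes were called, and without VehN replicate 1 or 3xTg NAVI replicate 2 Grin2b was among those called. The share of all genes called in those fits and with DESeq2 is not given here. These counts are therefore not results about the subunit genes alone. In this comparison the thalamus markers had a median log2 difference of -0.84, with summed levels of 245 to 1066 CPM in VehN and 227 to 617 with NAVI. Choroid plexus markers ran from 2342 to 5900 CPM in VehN and from 83.5 to 3756 with NAVI. For Grin2b the difference was as large without the 8 high-thalamus libraries (0.55, adjusted p = 0.0496). That fit kept only VehN replicates 3 and 4 and 3xTg NAVI replicates 2, 3 and 4. Choroid plexus scores stayed uneven among these libraries. They were higher in these VehN replicates than in NAVI replicates 2 and 4, and highest in NAVI replicate 3. The part of choroid plexus tissue in the Grin2b difference was therefore not tested by that fit.

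NAVI against vehicle in WT called 0 subunit genes, beside 0% of all genes, with 2 at an unadjusted p under 0.05 (7.74% of all genes) and 0 by DESeq2. The smallest p-values were those of Gabra6 (log2 2.53, on 0 to 88 counts in any library), Grin2b (-0.30, SE 0.145) and Grin3b (-1.07), with an edgeR adjusted p of 0.614 each.

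The NAVI effect differed between the genotypes for 4 of the 42, all more positive in 3xTg, beside 8.13% of all genes called and 5.89% called in that direction. They were Grin2b, Grin1, Grik5 and Grid1. This comparison shares its libraries with both preceding ones, so it is no separate evidence. The median over the 42 was -0.13 and that over all genes -0.02, and 15 of the 42 were positive.

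Grin2b (GluN2B, the NMDA subunit of young synapses and of extrasynaptic receptors) was at 155, 113, 117 and 138 CPM in VehN and at 210.1, 184, 165 and 208 with NAVI in 3xTg. In WT it was at 201, 139, 143 and 135 with vehicle and at 130.0, 110.1, 126 and 136 with NAVI. All 4 3xTg NAVI libraries lay above all VehN libraries, and in WT all but the highest NAVI library lay below every vehicle library. The difference of the effects was 0.85 (SE 0.205, edgeR adjusted p = 0.0427). Grin1 was at 138, 125, 109.8 and 144 CPM in VehN, at 147, 141, 175 and 202 with NAVI in 3xTg, at 182, 137, 152 and 169 in WT with vehicle and at 148, 138, 132 and 158 in WT with NAVI. Its groups overlapped in both genotypes, and the difference of the effects was 0.52 (SE 0.146, edgeR adjusted p = 0.0429). Exons of Grin1 overlap the antisense gene Grin1os.

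Grik5 stood at 85.6, 64.4, 60.8 and 80.9 CPM in VehN and at 88.6, 85.2, 118 and 139 with NAVI in 3xTg, against 111, 79.2, 95.8 and 111 in WT with vehicle and 88.5, 84.0, 71.8 and 84.8 in WT with NAVI. NAVI replicates 3 and 4 of 3xTg were the highest of these 16 libraries. The difference of the effects was 0.83 (SE 0.205, edgeR adjusted p = 0.0427). For Grid1, at 64.2, 60.6, 64.7 and 72.3 CPM with NAVI in 3xTg and 62.1, 63.7, 59.4 and 63.3 with NAVI in WT, it was 0.38 (SE 0.0879, adjusted p = 0.0427). Each of the 4 calls was lost without 3xTg NAVI replicate 3 or 4, VehN replicate 2 or 3, WT NAVI replicate 2, 3 or 4, or WT Veh replicate 1 or 4 (adjusted p up to 0.125). Without the 8 high-thalamus libraries all 4 were called (adjusted p 0.0139 to 0.0166), among 18 subunit genes beside 29.9% of all genes.

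**Figure D3:**
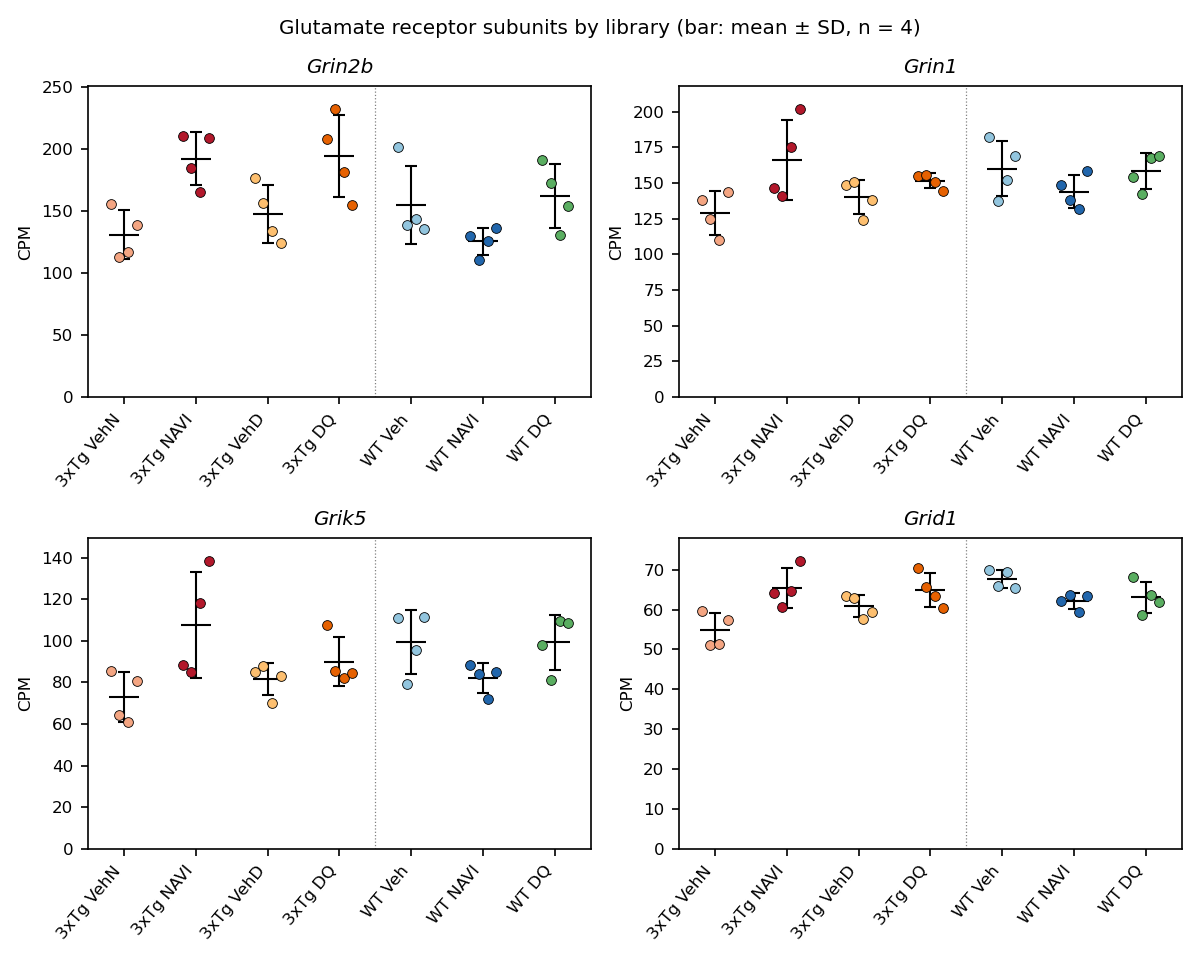
CPM of Grin2b, Grin1, Grik5 and Grid1 in each library (points) by group, with the mean and SD of 4 libraries (bars); axes start at 0. The 4 3xTg NAVI libraries of Grin2b lie at 165 to 210.1 CPM, above the 113 to 155 of VehN, while for Grin1 and Grik5 replicates 3 and 4 of NAVI lie apart from the other 2.

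Across the subunit genes the NAVI difference between genotypes followed the GC content of the transcript. Over the 42 genes, which share the same libraries, Spearman's rho was 0.73, and over 15590 tested genes with a GC content it was 0.69. Of the 14 subunit genes with the lowest GC content (35.3% to 42.9%) 0 were positive, with a median log2 value of -0.26, and this group holds 9 GABA-A genes with Gria2, Gria3, Grik2, Grm5 and Grm8. Of the middle 14, 3 were positive (median -0.17), and of the 14 with the highest GC content (49.9% to 65.0%) 12 were positive (median 0.41). Of the GABA receptor genes in that last group, Gabbr1 was at 0.02, Gabbr2 at 0.15, Gabrd at -0.02 and Gabre, with 2 to 34 counts, at -0.51. Of the AMPA genes in the lowest group, Gria2 was at -0.26 and Gria3 at -0.25. With the trend of counts with GC content removed from each library, rho over the 42 was 0.02. That trend was fitted over all genes with a GC content, so a rho near 0 follows from its removal and is no test. The mean absolute difference over the 38 genes with at least 1 log2 CPM went from 0.30 to 0.15. Grin1 was then at -0.01 (adjusted p = 0.97) and Grik5 at 0.21 (adjusted p = 0.210), while Grin2b was at 1.03 and Grid1 at 0.39 (adjusted p = 0.0790 each). Of the other comparisons, rho over the 42 was -0.62 between genotypes with vehicle, 0.59 with NAVI and -0.51 with DQ, 0.68 for NAVI in 3xTg and -0.66 for NAVI in WT. It was near 0 for DQ in 3xTg (0.10) and in WT (-0.13), between the vehicles (0.10) and for the DQ effect by genotype (0.10).

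**Figure D4:**
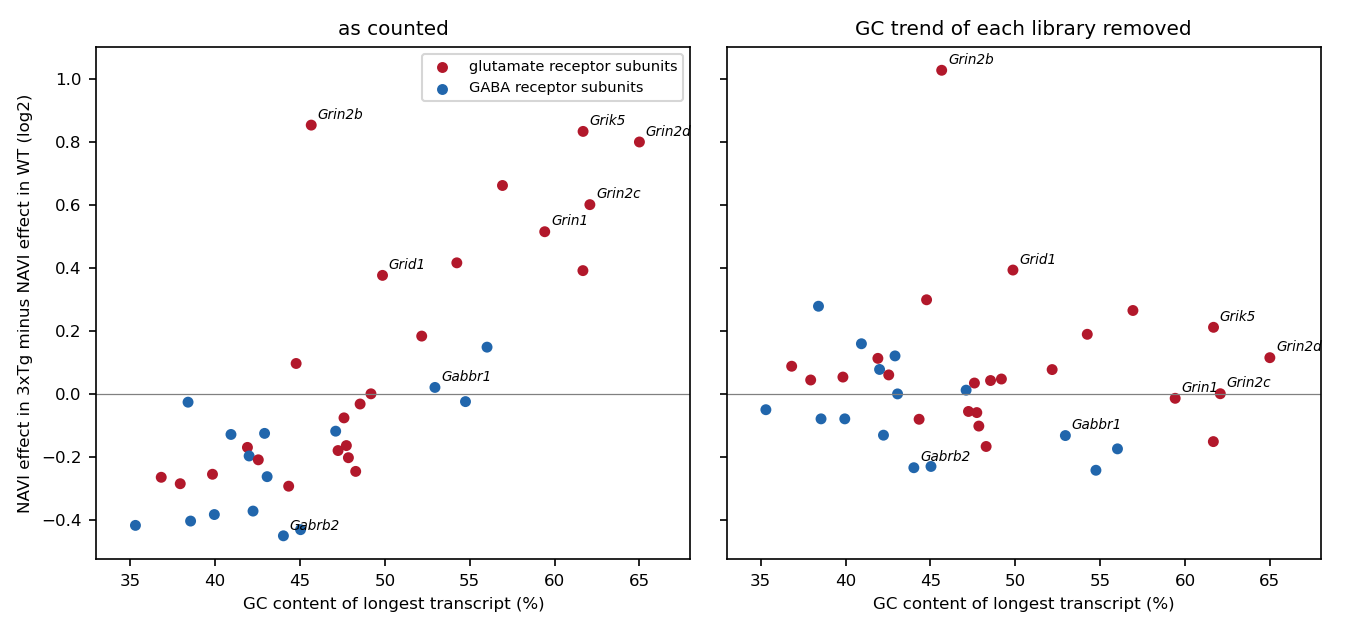
Each point is 1 of the 38 subunit genes with a mean of at least 1 log2 CPM; the horizontal axis gives the GC content of the longest transcript and the vertical axis the NAVI effect in 3xTg minus that in WT, in log2. As counted (left) values climb with GC content; with each library's GC trend removed (right) Grin1 lies at -0.01, while Grin2b lies at 1.03.

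Among mice given NAVI, Grin2b and Grin2c were higher in 3xTg than in WT, 2 of the 42, while 5.98% of all genes were called and 3.29% were called higher. Grin2b at 165 to 210.1 CPM in 3xTg and 110.1 to 136 in WT did not overlap, with a log2 difference of 0.61 (1.53-fold, SE 0.145, edgeR adjusted p = 0.0127). The call held in all 8 fits without 1 library (adjusted p 0.0185 to 0.0454), and with the GC trend removed the difference was 0.70 (adjusted p = 0.00699). Small genes Gm14329, Gm22892 and Gm26653 lie antisense to its exons. Grin2c (GluN2C, an NMDA subunit that astrocytes also express) was at 41.3, 36.7, 46.5 and 47.0 CPM in 3xTg and at 32.9, 27.4, 24.5 and 29.2 in WT, also without overlap. Its difference was 0.59 (SE 0.151, edgeR adjusted p = 0.0211) and 0.29 with the GC trend removed (adjusted p = 0.0212). It was not called without 3xTg NAVI replicate 3 or 4 or WT NAVI replicate 2, 3 or 4 (adjusted p up to 0.0906), and astrocyte markers, higher for 3 of 6 in this comparison, had summed levels of 2670 to 3599 CPM in 3xTg and 1896 to 1932 in WT. Oligodendrocyte markers, called for 0 of 6 at a median log2 difference of 0.47, had summed levels of 6237 to 7667 CPM in 3xTg and 3729 to 6326 in WT. The part of either cell type in the Grin2b and Grin2c differences was not tested.

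Without a test, the log2 ratio of Grin2a to Grin2b per library, a textbook index of NMDA receptor maturation, averaged -1.86 ± 0.0552 with NAVI and -1.48 ± 0.176 with VehN in 3xTg, and -1.83 ± 0.0999 with DQ and -1.55 ± 0.124 with VehD. In WT it averaged -1.35 ± 0.102 with NAVI, -1.63 ± 0.315 with DQ and -1.71 ± 0.239 with vehicle. The mean ratio was thus lower with either drug than with its vehicle in 3xTg, and higher with NAVI than with vehicle in WT. Libraries overlapped between DQ (highest -1.720) and VehD (lowest -1.725) in 3xTg, and between DQ and vehicle in WT. The ratio reuses the Grin2b values above, so it is no separate evidence, and receptor maturation was not tested. These are ratios of CPM not corrected for length, and Grin2a itself stayed between 41.4 and 66.1 CPM in all 28 libraries.

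DQ gave no call among the subunit genes. Against VehD in 3xTg 0 of 42 passed with edgeR, beside 0% of all genes, with 2 at an unadjusted p under 0.05 (1.83% of all genes) and 0 by DESeq2. The smallest p-values were those of Grin2b (log2 0.40, SE 0.145), Grik3 (0.29) and Grid1 (0.10). Grin2b was at 208, 232, 181 and 155 CPM with DQ and at 176, 156, 134 and 124 with VehD, and the groups overlapped. In WT 0 passed beside 0.00611% of all genes, with 0 at an unadjusted p under 0.05 (3.38% of all genes) and 0 by DESeq2, and Gabrg3 (0.26), Gabrg1 (-0.24) and Grin3b (-0.90) had the smallest p-values. The DQ effect differed between genotypes for 0 of 42 (2 at an unadjusted p under 0.05, as were 2.85% of all genes, and 0 by DESeq2), beside 0% of all genes, with Grik3 at 0.42, Grid1 at 0.19 and Grin3b at 1.46.

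Between the genotypes with DQ 0 of 42 passed beside 3.05% of all genes, with 7 at an unadjusted p under 0.05 (17.4% of all genes), and DESeq2 called Gabra2. After Gabra2, Gabrg1 (0.35, SE 0.129) and Gabbr1 (-0.13, SE 0.0483) had the smallest p-values. The vehicles VehD and VehN differed for 0 of 42, beside 0% of all genes, with 2 at an unadjusted p under 0.05 (4.93% of all genes) and 0 by DESeq2, and Grid1 at 0.15, Gabrb1 at 0.18 and Gabrg3 at 0.22 had the smallest p-values.

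**Figure D5:**
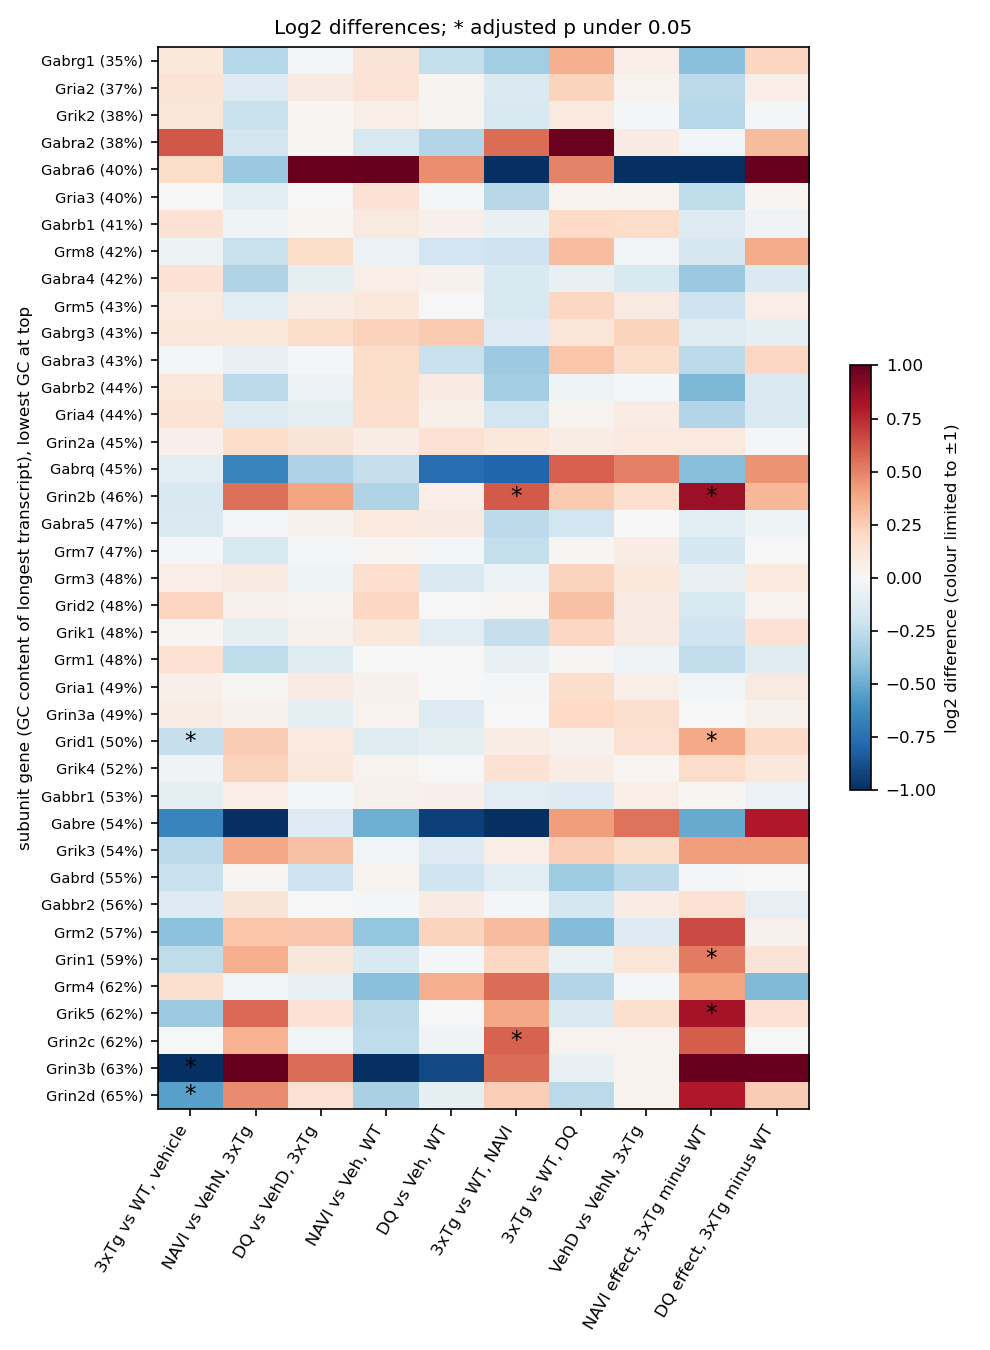
Log2 difference of 39 of the 42 tested subunit genes (rows, ordered by GC content of the longest transcript from lowest at the top) in 10 comparisons (columns), coloured within ±1, with an asterisk where the edgeR adjusted p is under 0.05. The 9 asterisks lie on Grid1, Grin2d and Grin3b with vehicle, Grin2b and Grin2c with NAVI, and Grin2b, Grid1, Grin1 and Grik5 for the NAVI effect by genotype.

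The 54 partner genes of these receptors, in 4 lists, were all tested. With vehicle, 10 of the 54 were lower in 3xTg and 1 was higher, while 13.1% of all tested genes were called and 7.4% were called lower. Of 13 glutamate receptor scaffolds 4 were lower, led by Dlg4 (PSD-95, log2 -0.36, edgeR adjusted p = 0.00775). Of 15 AMPA and kainate receptor auxiliary subunits 3 were lower, led by Cnih3 (-0.39, adjusted p = 0.00126). Of 12 GABA receptor scaffolds and auxiliary proteins 3 were lower, led by the adhesion protein Nlgn2 (-0.28, adjusted p = 6.19e-04). Of 14 genes of transmitter synthesis and transport 1 was higher, the astrocyte glutamate transporter Slc1a3 (0.31, adjusted p = 0.00275).

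With NAVI, Gad1 (-0.39, edgeR adjusted p = 0.00401) and Gad2 (-0.35, adjusted p = 0.0486), the enzymes that make GABA, were lower in 3xTg than in WT. They were the only partner genes of the 54 called between genotypes with NAVI, beside 5.98% of all tested genes. Interneuron markers were lower for 2 of 9 in that comparison, and these 2 were Gad1 and Gad2 themselves. The summed level of that list, to which both add, was 978 to 1127 CPM in 3xTg and 1208 to 1398 in WT. With DQ, Slc1a3 was higher in 3xTg (0.51, edgeR adjusted p = 1.06e-04), the only partner gene called there, beside 3.05% of all tested genes. The NAVI effect differed between genotypes for 7 of the 54 partner genes, beside 8.13% of all genes called and 5.89% called in the same direction. All 7 were more positive in 3xTg: 4 scaffolds, 2 auxiliary subunits and Nlgn2. Dlg4 was at 0.62, Nlgn2 at 0.33, the AMPA receptor trafficking protein Pick1 at 0.52 and Shank2 at 0.57, with an edgeR adjusted p of 0.0427 each. Partner genes were followed in the main fit only, without the other settings given for the subunit genes. Over all genes with a GC content, the log2 difference followed it here (rho 0.69) and between genotypes with vehicle (-0.51). The part of GC content in the partner calls was not tested. No partner gene passed for NAVI or DQ against vehicle in either genotype, or between the vehicles.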

How the data were processed

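Hippocampal RNA of female mice was sequenced as stranded mRNA libraries with paired reads, per the labels' protocols. Per the submitters' processing notes, STAR, Subread and featureCounts were used with build mm10. Annotation and strand setting are not stated there. The authors deposited 1 table of unnormalized counts by gene symbol, each library in its own column, and 0 columns went unused. No pair of libraries of a group agreed within sampling noise (lowest chi-square per degree of freedom 12.8). The labels do not say that each library is a separate animal, so p-values measure the spread between these libraries.

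Genes were tested with edgeR 4.0.16 (R 4.3.3): TMM, filterByExpr (7693 genes removed, 16369 kept), a coefficient for each group, all 28 libraries in 1 fit, quasi-likelihood tests, two-sided, Benjamini-Hochberg adjustment over all genes within each of 10 comparisons, calls at an adjusted p under 0.05. The SE is the absolute log2 difference over the square root of F. Positions, lengths and GC content come from GENCODE matched by symbol, with GC content known for 15590 tested genes (95.2%). The GC trend was removed as a lowess offset per library (span 0.3). A list's score is the mean over its markers of log2 CPM (prior count 2) relative to all libraries. The comparison of genotypes with vehicle was also run on simulated counts, with and without a GC trend. Those counts held no thalamus or choroid plexus variation shared across genes, so that run does not test its part in the calls.

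Named genes are the called subunits of each comparison or, with no call, the 3 with the smallest p, plus fixed subunits (Gria1, Gria2, Grin1, Grin2a, Grin2b, Grik4, Grm5, Gabra5, Gabrd, Gabbr1), and up to 4 called partner genes per comparison. Results for some items are not reported here. Members and lists were chosen with earlier results of these data known. The alternatives tried were DESeq2 1.42.0, upper-quartile and RLE scaling, no filter, only the libraries compared, other vehicle references, the replicate number as a block, the GC trend removed, marker scores as covariates, and libraries left out.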

Additional observations from a re-analysis of the deposited data

Results flagged for a closer look

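The 4 differences of the NAVI effect between genotypes passed a test of the difference itself: Grid1 at 0.3778, Grin2b at 0.8549, Grik5 at 0.8349 and Grin1 at 0.5164 in log2, with the values under other settings given above.

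In 6 of 111 pairs of a gene and a group, over 16 subunit genes, 1 library of the 4 stood apart from the rest (a gap past Dixon's 95% critical value), where chance gives about 1 in 20. Grin2b was at 201 CPM in WT Veh replicate 1, with the others at 135.4 to 143.2. Replicate 1 was also the highest for Grin2b in VehN (155), VehD (176), 3xTg NAVI (210.1) and WT DQ (191). It was not the highest in 3xTg DQ or WT NAVI, and the cause was not tested. Gabbr1 was at 895.4 CPM in WT DQ replicate 4 (others 756.5 to 772.2) and at 838.3 in WT NAVI replicate 4 (776.4 to 786.1). Gabra5 was at 297.3 CPM in WT NAVI replicate 4 (197.3 to 208.6). Gria1 was at 1476 CPM in WT DQ replicate 2 (1309 to 1323), and Grik5 was at 107.6 in 3xTg DQ replicate 1 (82.32 to 85.53).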

How the results depend on the processing

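Counts of subunit genes called moved with the settings in 5 comparisons. Between genotypes with vehicle (3) there were 0 with VehD alone, 5 with upper-quartile normalization and with DESeq2, 17 without the 8 high-thalamus libraries, and 1 to 6 without 1 library. For NAVI in 3xTg (0) there were 4 with both vehicles as reference and with marker scores as covariates, 7 without the high-thalamus libraries, 5 with DESeq2, and 0 to 9 without 1 library. Between genotypes with NAVI (2) there were 4 with only the libraries compared, with the GC trend removed and without the high-thalamus libraries, and 1 to 4 without 1 library. Between genotypes with DQ (0) there were 2 with only the libraries compared, 1 with DESeq2, and 0 to 1 without 1 library. For the NAVI effect by genotype (4) there were 0 with no filter, with only the libraries compared and with the GC trend removed, 10 with covariates, 18 without the high-thalamus libraries, 7 with DESeq2, and 0 to 12 without 1 library. The other 5 comparisons gave 0 under every setting run. The share of all genes called moved with the settings too. Between genotypes with vehicle it was 13.1% in the main fit and 3.81% with VehD alone. It was 13.9% with upper-quartile normalization and 20.1% with the replicate number as a block. The counts by setting are therefore not results about the subunit genes alone. The cause of these changes was not tested.

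Correlations of deviations between same-numbered libraries ran from -0.40 to 0.46, which does not settle whether replicate numbers pair the libraries. With the replicate number as a block the count between genotypes with vehicle was 5, beside 20.1% of all genes. It was 6 for NAVI in 3xTg, 5 between genotypes with NAVI and 7 for the NAVI effect by genotype. The share of all genes called moves with these settings too, so such counts are not results about the subunit genes alone. With the block and the GC trend removed the counts were 2 for NAVI in 3xTg, 5 between genotypes with NAVI and 2 (Grin2b and Grid1) for the NAVI effect by genotype. Grin1 reversed for the NAVI effect by genotype, to -0.01253 with the GC trend removed (adjusted p = 0.97) and -0.01044 with the block as well (0.974).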
